A study of Rattus norvegicus with 4 samples.

Results

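Connexins and claudins, the proteins that build gap junctions and tight junctions between cells, were described in the prefrontal cortex of newborn rats after prenatal exposure to bisphenol A (BPA), a monomer of polycarbonate plastic. The set named 10 genes, chosen with their measured BPA to control ratios in view, and a gene entered by its symbol in the deposited tables. Of these, 9 had a row, out of 14008 genes with an NCBI Gene identifier, and Gjc3, a connexin of myelinating glia, had none. They were grouped as border cell genes (Gjb2, Gjb6, Cldn11, Cldn1), glial genes (Gja1, Cldn10), neuronal genes (Gjd2, Gjc1) and a broadly used claudin (Cldn12). Because the set was chosen on the contrast of BPA with control, its values in that contrast are a description and carry no p-value.

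Polyadenylated RNA was sequenced as 4 libraries, a control and a BPA library of each sex. All pups were Wistar rats of postnatal day 1 per the labels, and the study's methods name the substrain Wistar Furth. Dams of the BPA groups were given 5000 µg/kg BPA each day by oral gavage from gestational day 1 until birth, and dams of the control groups were given the vehicle, corn oil with ethanol. The methods describe several pups of each sex and treatment, from separate litters, for the sequencing and the PCR, and neither source states whether a library pooled them, so within a sex 1 library stood against 1, without a replicate check, and the ratios compare those libraries and not the conditions. The methods state that the meninges were removed before the cortex was dissected.

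Gap junction channels are built from connexins, each cell contributing a connexin ring, and they pass ions and small metabolites between neighbouring cells. Tight junctions are strands of claudins that seal the space between cells, and the claudins present set how leaky the seal is. In the brain, Gja1 (connexin 43) is the main connexin of astrocytes and is also made by fibroblasts of the meninges. Gjb2 (connexin 26) and Gjb6 (connexin 30) are known from the meninges, and Gjb6 also from mature astrocytes. Cldn11 forms the tight junctions of the arachnoid barrier and those between the layers of myelin. Gjd2 (connexin 36) forms electrical synapses between neurons.

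The promoters of the 4 genes with the lowest BPA to control ratios are shown because the levels of 3 of them moved together over the libraries and those of Gja1 did so less closely. Promoter sequences were read from RefSeq, assembly GRCr8, which is a later build than the one used to make the expression values, and 9 of the 10 genes named had an entry. Each window runs from 250 bases before to 50 bases after an annotated start, on the gene's own strand. They are Gjb2 (chr15:35381904-35382203, minus strand), Gjb6 at the upstream of its annotated starts (chr15:35410089-35410388, minus strand), Cldn11 (chr2:114149490-114149789, minus strand) and Gja1 (chr20:36302314-36302613, plus strand). Capitals mark a GC box (GGGCGG, or CCGCCC on the other strand) or a CCAAT box (CCAAT, or ATTGG on the other strand), and the marked matches do not overlap.
Gjb2: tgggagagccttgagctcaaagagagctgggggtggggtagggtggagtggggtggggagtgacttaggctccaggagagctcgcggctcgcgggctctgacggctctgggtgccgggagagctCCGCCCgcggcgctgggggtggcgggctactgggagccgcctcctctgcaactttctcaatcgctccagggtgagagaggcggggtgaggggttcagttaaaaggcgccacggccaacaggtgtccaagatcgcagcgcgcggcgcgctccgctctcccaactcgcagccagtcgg
Gjb6: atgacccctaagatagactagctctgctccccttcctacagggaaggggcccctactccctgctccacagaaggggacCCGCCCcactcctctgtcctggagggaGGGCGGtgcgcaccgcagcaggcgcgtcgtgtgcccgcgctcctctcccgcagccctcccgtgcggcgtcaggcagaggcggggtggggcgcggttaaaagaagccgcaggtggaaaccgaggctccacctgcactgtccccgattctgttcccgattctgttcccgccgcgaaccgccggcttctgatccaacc
Cldn11: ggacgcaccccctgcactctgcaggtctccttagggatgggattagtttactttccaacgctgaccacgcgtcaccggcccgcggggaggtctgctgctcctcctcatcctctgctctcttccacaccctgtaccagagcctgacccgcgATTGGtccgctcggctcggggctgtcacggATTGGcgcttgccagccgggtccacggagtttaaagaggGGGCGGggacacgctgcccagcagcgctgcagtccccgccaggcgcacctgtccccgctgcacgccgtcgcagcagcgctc
Gja1: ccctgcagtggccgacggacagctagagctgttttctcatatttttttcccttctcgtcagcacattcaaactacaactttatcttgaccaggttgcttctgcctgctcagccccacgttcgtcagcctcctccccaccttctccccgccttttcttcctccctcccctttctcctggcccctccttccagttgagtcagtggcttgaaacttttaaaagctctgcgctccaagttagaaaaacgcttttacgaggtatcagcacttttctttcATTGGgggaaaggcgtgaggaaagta

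GC made up 68.0% of the Gjb2 window, 67.0% of the Gjb6 window printed and 67.0% of the Cldn11 window, all above the upper quartile of 60.3% over 33469 RefSeq rat promoters of the same length. The windows of Cldn1 (60.7%) and Gjd2 (62.0%), which had no log2 ratio of -1 or lower, also lay above that quartile. GC made up 50.3% of the Gja1 window and 52.3% of the window at the other annotated start of Gjb6 (chr15:35408913-35409212), both close to the median of 51.7%. A GC box was found in the windows of Gjb2, Gjb6 and Cldn11 and also in those of Cldn1 and Gjd2, against 33.1% of all promoters. The Gja1 window held no GC box and 1 CCAAT box, 24 bases after the start, and a CCAAT box was held by 37.5% of all promoters. The TATA box letters TATAAA, held by 14.2% of all promoters on either strand, were in none of the windows of the set. The nuclear receptor half-site AGGTCA (16.2% of all promoters) was found in the Gjc3 window, and the forkhead core GTAAACA (3.78%) in the Cldn10 window. Gjb2 and Gjb6 lie on chromosome 15 with 0 protein-coding genes between them in that annotation. These matches describe letters in a window and were not tied to binding.

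Expression was deposited as FPKM, a fragment count scaled by transcript length and by library depth, which allows levels to be set beside each other between genes. Depth was recovered from the steps in which scarce transcripts change, at between 8948750 and 9249500 fragments per library. Estimated fragments of each gene were then used for 95% exact intervals of a ratio, which cover counting error only and not the spread between animals. Values of a pair are given with the control library first and the BPA library second. The log2 ratios were taken after adding 0.5 FPKM to both values, which makes them smaller for scarce genes.

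Among the border cell genes, Gjb2, Gjb6 and Cldn11 were at their lowest in both BPA libraries. Gjb2 had 15.89 and 5.0 FPKM in the male pair and 15.44 and 3.34 in the female pair, from 352, 110, 331 and 72 fragments. The control libraries stood close together, and each BPA library lay far below both of them. The ratio of BPA to control was 0.315 in males (interval 0.252 to 0.391) and 0.216 in females (0.165 to 0.280). On the log2 scale the differences were -1.57 and -2.05, and only 8 of the 13033 genes listed in all libraries had a lower mean log2 ratio.

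Gjb6, the chromosomal neighbour of Gjb2 and its common partner in mixed channels, had 6.92 and 2.36 FPKM in the male pair and 7.81 and 1.71 in the female pair. The BPA and control values did not overlap, as was so for each of the described genes, and the BPA values rested on 37 and 26 fragments. The ratio was 0.341 in males (0.228 to 0.499) and 0.219 in females (0.138 to 0.336), or -1.38 and -1.91 on the log2 scale.

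Cldn11 had 17.24 and 6.25 FPKM in the male pair and 18.13 and 3.56 in the female pair. The BPA female library held the lowest value, and the controls again differed little. The ratio was 0.362 in males (0.287 to 0.455) and 0.196 in females (0.146 to 0.261), or -1.39 and -2.20 on the log2 scale.

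The levels of the 3 genes kept close proportions to each other in all 4 libraries. The level of Gjb6 over that of Gjb2 was 0.435 and 0.472 in the male pair and 0.506 and 0.512 in the female pair. The level of Cldn11 over that of Gjb2 was 1.08 and 1.25 in the male pair and 1.17 and 1.07 in the female pair. The proportion moved further for Gja1, whose level over that of Gjb2 was 1.99 and 2.80 in the control male and female libraries and 4.46 and 4.82 in the BPA libraries.

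Cldn1, a claudin of epithelial and arachnoid barriers, was scarce and had a ratio above 1 in both pairs, unlike the other border cell genes. It had 0.50 and 0.68 FPKM in the male pair and 0.42 and 0.55 in the female pair, from 15, 20, 12 and 16 fragments. Its ratio was 1.36 in males (0.661 to 2.86) and 1.31 in females (0.581 to 3.03). The intervals are wide because so few fragments stand behind them.

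**Figure D1:**
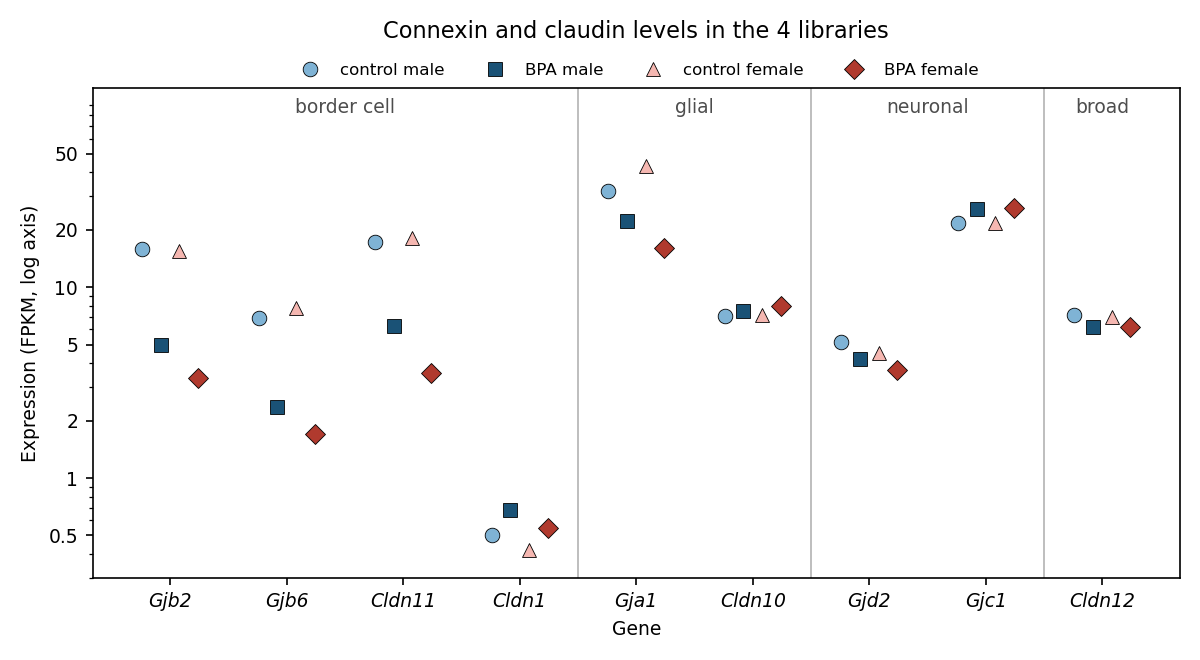
Level of each of the 9 genes in each library, in FPKM on a log axis, with 1 point per library and grey lines between the groups of genes. For Gjb2, Gjb6 and Cldn11 both BPA points lie below both control points by a wide gap, Gja1 shows the widest split between the BPA and control females after them, and the other genes keep their points close together.

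Of the glial genes, Gja1 was lower in both BPA libraries and Cldn10 was not. Gja1 had 31.67 and 22.31 FPKM in the male pair and 43.21 and 16.11 in the female pair, from 905, 632, 1194 and 447 fragments. Both BPA values lay below both controls, and the female libraries held the highest and the lowest value. The ratio was 0.705 in males (0.635 to 0.781) and 0.373 in females (0.334 to 0.416), or -0.50 and -1.40 on the log2 scale. The log2 ratio was thus lower in females by 0.90, a difference for which no test over replicates could be made.

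Cldn10, a claudin with ion-selective isoforms that is known from astrocytes, had 7.06 and 7.45 FPKM in the male pair and 7.12 and 7.97 in the female pair. The BPA values were slightly above the controls, with a ratio of 1.06 in males (0.921 to 1.21) and 1.12 in females (0.977 to 1.28).

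The neuronal genes differed by less than 1 on the log2 scale in both pairs. Gjd2 had 5.14 and 4.22 FPKM in the male pair and 4.52 and 3.70 in the female pair. Its ratio was 0.821 in males (0.592 to 1.14) and 0.819 in females (0.574 to 1.17). Gjc1 (connexin 45), which is known from neurons and also from vessel walls, had 21.75 and 25.7 FPKM in the male pair and 21.59 and 25.96 in the female pair. Both BPA values were above both controls, with a ratio of 1.18 in males (1.04 to 1.35) and 1.20 in females (1.05 to 1.38). The level of Gjd2 over that of Gjc1 was 0.236 and 0.164 in the male pair and 0.209 and 0.143 in the female pair.

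Cldn12, a claudin found in many tissues, had 7.18 and 6.18 FPKM in the male pair and 6.97 and 6.18 in the female pair. The BPA values were below the controls, with a ratio of 0.861 in males (0.711 to 1.04) and 0.887 in females (0.730 to 1.08).

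A log2 ratio of -1 or lower was held by 3 of the 9 genes in males (Gjb2, Gjb6, Cldn11), where 1.18% of 13496 genes did so, and by 4 of 9 in females (Gja1 in addition), where 2.21% of 13545 genes did. The same 3 genes of the male pair passed in both pairs, against 0.529% of all genes. None of the 9 had a log2 ratio of 1 or higher, against 0.348% of all genes in males and 0.266% in females. These counts follow from how the genes were chosen. The median log2 ratio of the 9 genes was -0.26 in males and -0.26 in females, and over the 10632 genes with a mean of at least 1 FPKM it was -0.04 and -0.05. The 3 genes below the threshold in males lay between -1.38 and -1.57, and the next lowest gene, Gja1, was at -0.50. In females the 4 genes lay between -1.40 and -2.20, and the next lowest, Gjd2, was at -0.26.

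**Figure D2:**
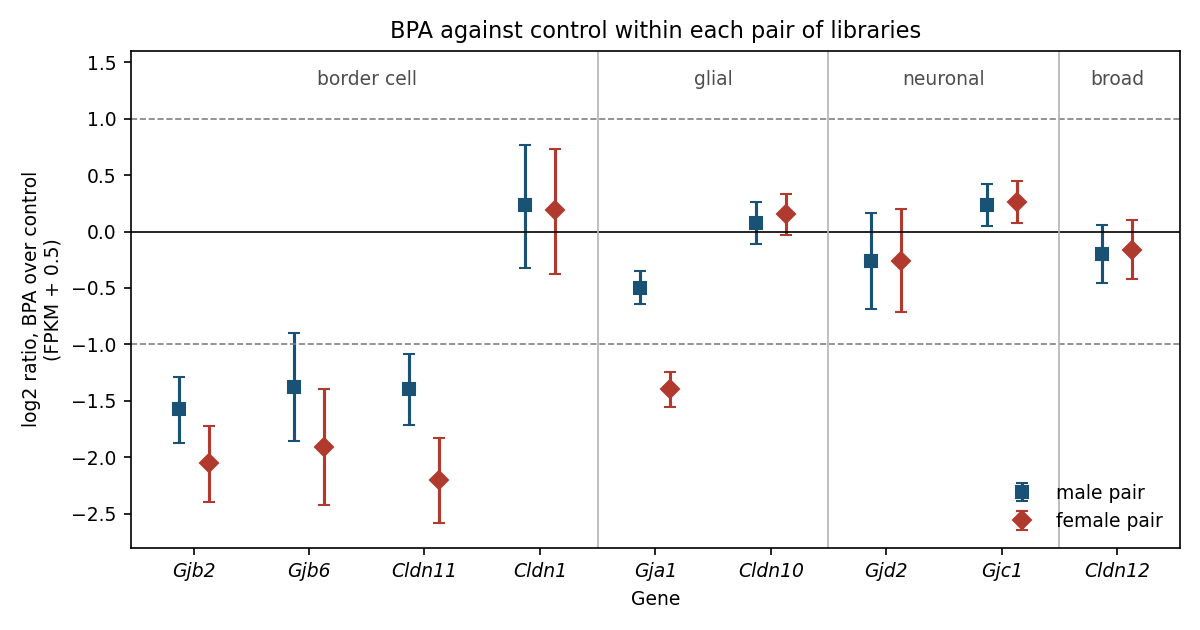
Log2 ratio of BPA to control for each of the 9 genes, after adding 0.5 FPKM, in the male pair (squares) and the female pair (diamonds), with bars for the 95% exact interval of counting error on that scale and dashed lines at -1 and 1. Gjb2, Gjb6 and Cldn11 lie below -1 in both pairs, Gja1 lies at -0.50 in males and -1.40 in females, and the other 5 genes lie between -0.26 and 0.26.

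The order of the levels differed between the treatments. In the controls it ran from Gja1 (37.44 FPKM, mean of both libraries) through Gjc1 (21.67), Cldn11 (17.68), Gjb2 (15.66), Gjb6 (7.37), Cldn10 (7.09), Cldn12 (7.08) and Gjd2 (4.83) to Cldn1 (0.46). The ranges of Gjb6 and Cldn10 overlapped, as did those of Cldn10 and Cldn12, and the other neighbours were separated in both libraries. In the BPA libraries Gjc1 was the most abundant of the described genes at 25.83 FPKM, ahead of Gja1. Cldn10 was there the most abundant of the described claudins. The ranges of Cldn12, Cldn11, Gjb2 and Gjd2 there overlapped from one neighbour to the next.

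The contrast of female with male did not enter the choice of genes and could be tested with limma over both treatments, for the 8 genes with a mean of at least 1 FPKM. None was called at a Benjamini-Hochberg adjusted p under 0.05, with limma log2 differences from -0.33 (Cldn11) to 0.05 (Cldn10), unadjusted p from 0.424 to 0.989 and adjusted p of 1.0 throughout. In this fit the treatment adds to the spread within a sex. With treatment as a further term the lowest adjusted p was 0.639 (unadjusted 0.0635, both Cldn11). Among all genes, limma called 0.0188% between the sexes. These were Eif2s3y, a Y-linked translation factor gene, which had 52.77 and 47.18 FPKM in the male libraries and 0.0 and 0.07 in the female ones, and LOC100911498, both named after their values were seen.

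Within a treatment, 1 library against 1, the level of Gja1 was higher in control female than in control male by a ratio of 1.36 (1.25 to 1.49), and lower in BPA female than in BPA male, at 0.722 (0.638 to 0.816). In the control libraries the female to male ratio was 0.972 for Gjb2 (0.834 to 1.13), 1.13 for Gjb6 (0.863 to 1.48) and 1.05 for Cldn11 (0.891 to 1.24), and each interval holds 1. In the BPA libraries the ratio was 0.668 for Gjb2 (0.489 to 0.907) and 0.570 for Cldn11 (0.406 to 0.793). Both intervals lie below 1, though they cover counting error alone. For Gjb6 the ratio there was 0.725 (0.422 to 1.23), and its interval holds 1. For Gjc1 and Cldn12 the ratio was 1.01 (0.890 to 1.15) and 1.00 (0.820 to 1.22) in the BPA libraries, and 0.993 and 0.971 in the controls.

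The genes whose pattern over the 4 libraries was closest to that of Gjb2 were sought among 10632 genes by Euclidean distance between log2 levels, each centred on its own mean. They were Igf2 (distance 0.114), the growth factor gene, Frzb (0.126), a secreted Wnt antagonist, Cldn11 (0.172), Gjb6 (0.247) and Cdhr1 (0.336), a cadherin of olfactory bulb projection neurons. Frzb had 4.76 and 1.45 FPKM in the male pair and 4.55 and 0.78 in the female pair. Gja1 came at place 108 in that order, and Gjc1 at place 10051. The genes closest to Gja1 were Ptrf (0.0862), a coat protein gene of caveolae, Osr1 (0.0911), a zinc finger transcription factor gene, Olfml2a (0.0958), Col6a2 (0.107), a chain of collagen VI, and Adamts2 (0.111), a procollagen peptidase. Col6a2 had 13.44 and 8.5 FPKM in the male pair and 17.13 and 6.52 in the female pair, with its highest and lowest values in the female libraries as for Gja1. Distances over 4 libraries are a description.

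Other junction genes were taken from lists of connexins, claudins, pannexins, tight junction partners and adherens junction genes, and the sexes served as the replicates of a treatment in limma. Of the 44 tested, 2 were called, both lower with BPA, where limma called 3.79% of all 10632 genes as lower and 0.696% as higher. Cgnl1, which encodes paracingulin of the junctional plaque, had 3.82 and 1.70 FPKM in the male pair and 4.71 and 2.12 in the female pair. Its limma log2 ratio was -0.98 (standard error 0.192, adjusted p = 0.0212). Cdh5, the cadherin of endothelial adherens junctions, had 11.47 and 8.14 FPKM in the male pair and 13.16 and 6.03 in the female pair. Its limma log2 ratio was -0.77 (standard error 0.147, adjusted p = 0.0192). Over the alternatives the limma adjusted p ranged from 0.00900 to 0.132 for Cgnl1 and from 0.00203 to 0.155 for Cdh5, and without the control female library limma called 0 of the 44 (10 at an unadjusted p under 0.05). With sex as a replicate block limma called 6 of the 44, 5 lower and 1 higher, and with median-of-ratios scaling it called 3, with Ctnna2 as the higher gene in both. Without the BPA female library limma called 1, Cgnl1, and without either male library limma called 4, which were Cdh5, Cgnl1 and Cldn5 with Tjp1 (without control male) or with Pard6a (without BPA male).

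By list, limma called 0 of 2 other connexins, 0 of 1 other claudin, 0 of 2 pannexins, 1 of 22 tight junction partners and 1 of 17 adherens junction genes, and at an unadjusted p under 0.05 it called 16 of the 44, where 21.1% of all 10632 genes passed that limit. The genes of the next sentences, and those named below beside a count of called markers, were picked after their values were seen. Cldn5, the main claudin of brain endothelium, had 60.49 and 55.8 FPKM in the male pair and 70.46 and 42.57 in the female pair, a limma log2 ratio of -0.42 with an adjusted p of 0.0788, and it was called as lower with the replicate block. Ctnna2, the alpha-catenin gene of neurons, had 56.96 and 67.19 FPKM in the male pair and 56.66 and 66.75 in the female pair, a limma log2 ratio of 0.24 with an adjusted p of 0.0685. Gja4, a connexin of vessel walls, had 2.99, 1.82, 2.59 and 1.64 FPKM in the same order (limma adjusted p = 0.147). Tjp1, the scaffold of tight junctions, had a limma log2 ratio of -0.37 (adjusted p = 0.102). None of these genes reached an absolute log2 ratio of 1 in both pairs, and in females Cdh5 did so downward.

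**Figure D3:**
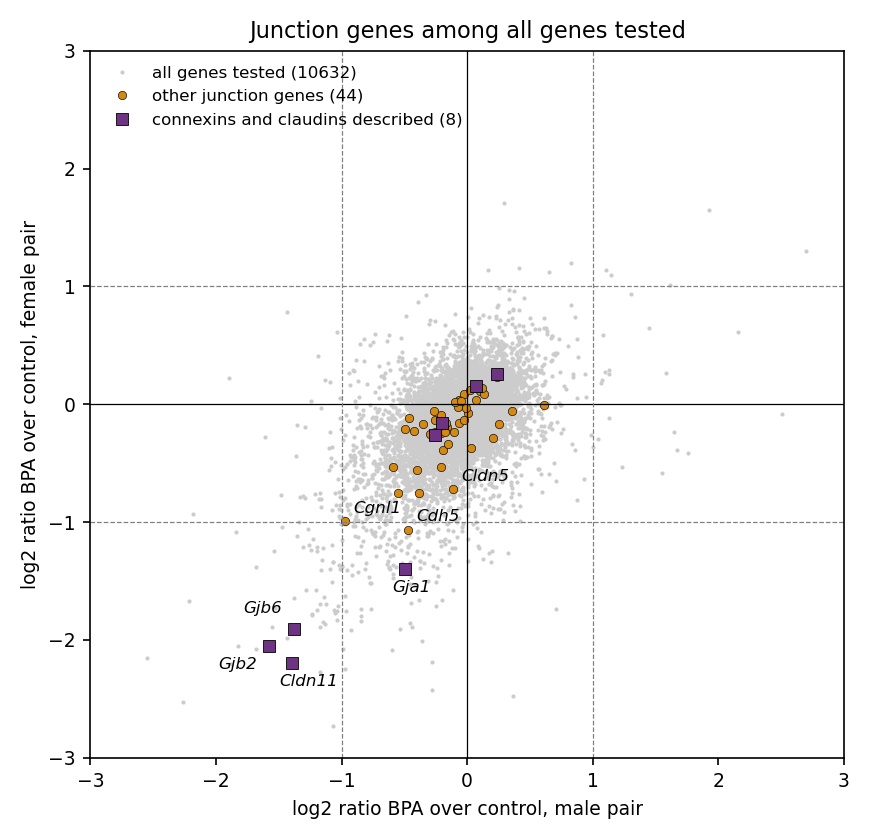
Log2 ratio of BPA to control in the male pair (horizontal) against the female pair (vertical), after adding 0.5 FPKM, for all 10632 genes tested (grey), 44 other junction genes (orange) and the 8 described genes with a mean of at least 1 FPKM (purple squares). Dashed lines stand at -1 and 1, and 1 grey gene lies outside the axes. Gjb2, Gjb6 and Cldn11 sit at the lower left, past -1 in both pairs, and none of the orange genes does.

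The cell types that make these junctions were read from marker lists, and in bulk tissue fewer cells of a type and less RNA per cell cannot be told apart. The lists were chosen with earlier results of these data known, so the marker counts given here and below are a description. Over the 12 markers of leptomeningeal fibroblasts, the summed level was 488.5 and 227.0 FPKM in the male pair and 645.7 and 155.4 in the female pair. Limma called 11 of the 12 lower and 0 higher, and Foxc1 did not pass (adjusted p = 0.0552). As above, limma called 3.79% of all genes lower and 0.696% higher, and without the filter on low levels it called 0 of 13033 genes (2409 at an unadjusted p under 0.05), so that every marker call given here and below was lost. Their most abundant genes were Ptgds, Igf2 and Col1a2, and Ptgds, the prostaglandin D synthase of the meninges, had 214.0 and 109.1 FPKM in the male pair and 320.0 and 66.9 in the female pair. The summed ratio was 0.465 in males and 0.241 in females, and the female pair stood lower as it did for the 4 junction genes. The list thus moved with Gjb2, Gjb6, Cldn11 and Gja1, and its part in their levels was not tested.

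Set beside that sum, Gjb2 came to 3.25 and 2.20% of it in the male pair and 2.39 and 2.15% in the female pair. Cldn11 came to 3.53, 2.75, 2.81 and 2.29% of it and Gjb6 to 1.42, 1.04, 1.21 and 1.10%, in the same order. Their share was lower in the BPA library of each pair. The share of Gja1 was higher there, at 6.48% and 9.83% in the male pair and 6.69% and 10.4% in the female pair.

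Markers of astrocytes and radial glia, which make Gja1 and Cldn10, were carried by 12 genes with a summed level of 929.8 and 821.9 FPKM in the male pair and 933.5 and 689.6 in the female pair. Limma called 4 of the 12 lower (Slc1a3, Slc1a2, Aqp4, Gfap) and 0 higher. Of the most abundant, the glutamate transporter gene Slc1a3 fell (limma log2 ratio -0.39, adjusted p = 0.0120), while Fabp7 and Vim had adjusted p of 0.0654 and 0.0576. The summed ratio of 0.884 in males and 0.739 in females lay above that of Gja1 in each pair and below that of Cldn10, and the part of this list in the level of Gja1 was not tested.

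For the oligodendrocyte lineage, the other known source of Cldn11, the summed level of the markers ran from 138.0 to 163.2 FPKM over the libraries, with a ratio of 0.941 in males and 0.848 in females. Of its most abundant genes, Olig1, Cnp and Pdgfra had limma adjusted p of 0.0624, 0.237 and 0.0808. For endothelium, limma called 3 of 10 lower (Cdh5, Kdr, Tek) and 0 higher, with a summed ratio of 0.875 in males and 0.657 in females. Cdh5 is itself on this list, with Cldn5 and the glucose transporter gene Slc2a1 as the most abundant, and Slc2a1 had a limma log2 ratio of -0.01 (adjusted p = 0.972).

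Markers of the choroid plexus, an epithelium rich in claudins, were at or near 0, with a summed level between 0.87 and 2.35 FPKM and none reaching the mean needed for a test. Their summed ratio, from these low levels, was 0.624 in males and 0.370 in females. The defining gene of the choroid plexus, Ttr, was not listed in the male libraries and had 0.35 FPKM in control female and 0.0 in BPA female. Kcnj13, the most abundant of this list, had 1.25 and 0.45 FPKM in the male pair and 1.67 and 0.46 in the female pair, and Otx2 had 0.38 and 0.29 in males and 0.25 and 0.20 in females.

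Cortical neuron markers, which check the dissected tissue, were abundant in every library, with a sum between 2245 and 2611 FPKM and a ratio of 1.15 in males and 1.11 in females. Most of that sum was Tubb3, with 1569.25 and 1886.54 FPKM in the male pair and 1552.23 and 1767.86 in the female pair. The median log2 ratio of the 9 markers was 0.129 in males and 0.1 in females. Limma called 1 of 9 higher (Neurod2) and 1 of 9 lower (Slc17a7), and the most abundant, Tubb3, Neurod6 and Snap25, did not pass (adjusted p = 0.158, 0.397 and 0.239). Limma called 3 of 6 inhibitory interneuron markers lower (Gad1, Sst, Calb2) and 0 higher. Of their most abundant, the calretinin gene Calb2 (limma log2 ratio -1.20, adjusted p = 0.000559) and the somatostatin gene Sst (-0.32, adjusted p = 0.0310) were lower, and Npy had an adjusted p of 0.280. Of 3 olfactory bulb markers tested, Cdhr1 was lower (limma log2 ratio -2.04) and Reln and Nmb did not pass (adjusted p = 0.768 and 0.144). The summed ratio of the 5 olfactory bulb markers listed in all libraries was 0.650 in males and 0.530 in females. Of 6 striatal markers limma called 4 higher (Ppp1r1b, Drd2, Rxrg, Ebf1), while Adora2a had an adjusted p of 0.0512. Markers of regions next to the cortex thus also differed between the treatments. The part of the dissection in these levels was not tested.

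**Figure D4:**
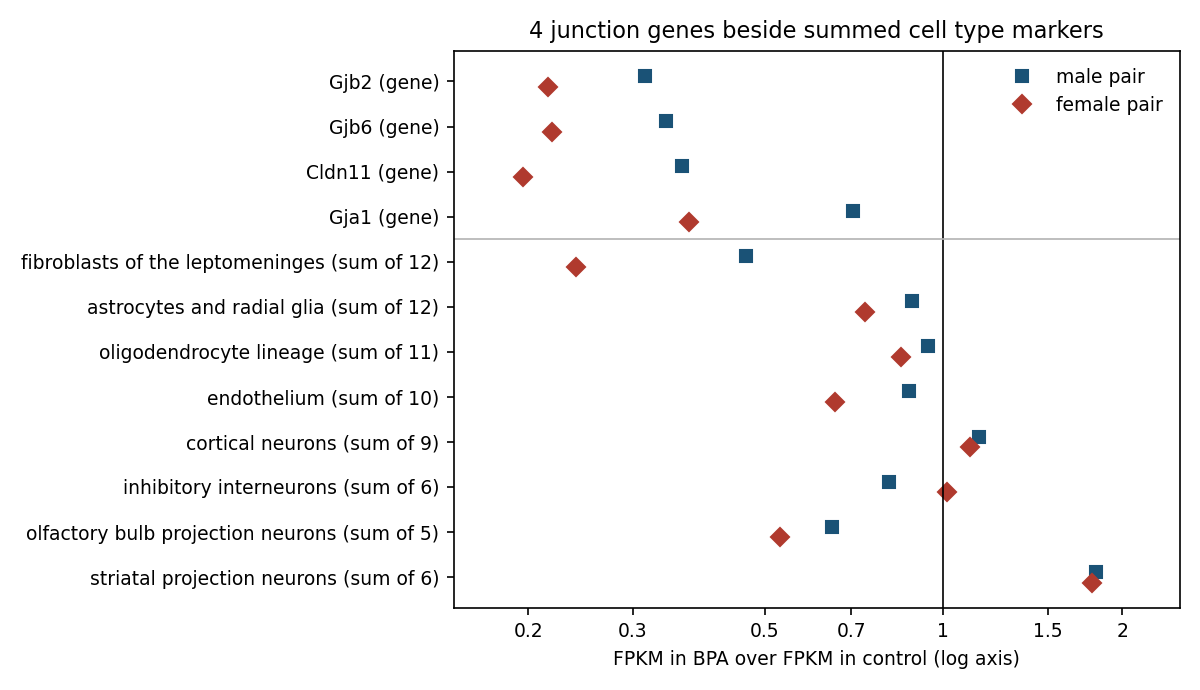
Ratio of FPKM in BPA to FPKM in control, on a log axis, for 4 junction genes (above the grey line) and for the summed FPKM of each list of cell type markers (below it), in the male pair (squares) and the female pair (diamonds). The choroid plexus list, at or near 0 in every library, is not drawn. The leptomeningeal fibroblast sum, at 0.465 and 0.241, is the list closest to Gjb2, Gjb6 and Cldn11, and the oligodendrocyte sum stays at 0.941 and 0.848.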

How the data were processed

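Per the study's methods, polyadenylated RNA was sequenced with Illumina chemistry, Bowtie2 placed the filtered reads on the rat genome (rn6) and RSEM gave expression levels. The submitters' processing notes also name HISAT, and versions are not given in the sources used here. The authors deposited FPKM, which scales fragments to transcript length and library depth, to 2 decimals and with a lowest value of 0.01, read here as 0. Rows with an NCBI Gene identifier were summed per symbol, and 3411 assembled transcripts without one were left out.

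Fragments were estimated as FPKM times length less 60 bases, at the depth giving whole numbers most often. From 86.9 to 88.3% of 1712 to 1799 scarce transcripts came within 0.1. Ratio intervals are exact conditional ones.

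The count tests planned could not be run on FPKM. Instead, limma 3.58.1 (R 4.3.3) was fitted to log2(FPKM + 0.5) of genes with a mean of at least 1 FPKM, with a variance trend and Benjamini-Hochberg adjustment. With treatment as the only term, the sexes are its replicates, leaving 2 residual degrees of freedom, and p-values measure the spread between these libraries. It was tested on simulated data. Python 3.11.15 with pandas 2.3.3 and scipy 1.17.1 was used otherwise.

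The genes, lists and naming rule were chosen with earlier results of these data known. Named are all described genes, junction genes called or past a log2 ratio of 1 in both pairs, at most 8 a list, the 3 most abundant markers per list, and the 5 nearest profiles of Gjb2 and Gja1. Other genes are marked in the text as picked after their values were seen. The alternatives were other pseudocounts, no filter, median-of-ratios scaling, a replicate block and leaving out each library. The calls of single oligodendrocyte markers beyond the 3 most abundant are not reported here.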

Additional observations from a re-analysis of the deposited data

How the results depend on the processing

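With other pseudocounts or scaling, the 54 alternative values of the log2 ratios of the 9 genes stayed within their counting intervals, and 0 changed sign. Genes past an absolute log2 ratio of 1 numbered 206 in males and 335 in females, 1071 and 1363 with a pseudocount of 0.1, 85 and 169 with 1, and 126 and 222 at a mean of at least 1 FPKM. For BPA against control, limma called 477 of 10632 genes (74 higher, 403 lower), 442 with median-of-ratios scaling (128 higher, 314 lower), 0 without a filter (2409 at an unadjusted p under 0.05), 74 with assembled transcripts included, an alternative chosen after seeing the data, and 248 (without control female) to 491 without 1 library, with 293 without BPA female. Of the junction genes it called 2, 0 without a filter (17 unadjusted), 0 with assembled transcripts (15 unadjusted), 3 with the scaling (Ctnna2 higher in addition), and 0 to 4 without 1 library.

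The labels carry no replicate numbers. A replicate block by sex, whose pairing rests on the sex label alone, gave 867 calls for treatment and 6 of the junction genes (Cdh5, Cgnl1, Cldn5, Ctnna2, Pard6a, Vcl). With 1 library left out the lone library is assumed to vary like the others. Between the sexes limma called 2 genes, 11 with the replicate block, in which treatment was the block, and 2 to 13 without 1 library, with 13 without control female and 4 without BPA female.

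Leaving out a library unbalances the treatments between the sexes. The limma log2 difference of female from male then ranged, without control female at one end, from -1.31 to 0.75 for Gjb2, from -1.06 to 0.85 for Gjb6, from -1.43 to 0.77 for Cldn11 and from -0.71 to 0.69 for Gja1 (upper ends without BPA female), from -0.025 to 0.13 for Cldn10 and from -0.13 to 0.13 for Gjc1 (lower ends without BPA female), and over the 4 fits from -0.12 to 0.081 for Cldn12. For Gjd2 it kept its sign, at -0.17 with all libraries, -0.297 without control female or without BPA male, and -0.04 without control male or without BPA female. Median-of-ratios scaling gave 0.002 for Gja1. None of these values was called.

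With 1 library per sex and treatment, the spread between animals of a group is unknown, and the intervals cover counting error alone. Cldn1 rested on 12 to 20 fragments, and its intervals reach from 0.581 to 3.03.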
